A study of Mus musculus with 7 samples.

Results

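The genes described here are 37 glycolysis and hypoxia response genes, chosen by name: the glucose and lactate transporters, the glycolytic enzymes with their isozymes, the enzymes that decide the fate of pyruvate, the oxygen sensors and HIF subunits, and a set of genes that hypoxia induces. All 37 had at least 1 TPM in at least 3 samples, of 13798 genes that did so among 55357 in the table. TPM is a length-corrected transcript level scaled to the same total in every library, so levels of different genes can be compared within a library. 33 of the 37 also reached 1 TPM in at least 3 ENT1KO libraries. Eno2, Car9, P4ha2 and Adm passed through the WT libraries, where they were higher, so their differences follow in part from the filter. Aldoa has a second, separately annotated gene of the same symbol, which stayed under 1 TPM in each library and was not tested.

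RNA was sequenced from live CD45+ CD8+ cells sorted out of subcutaneous MCA205 tumours taken on day 14. Each condition supplied at least 30000 of them. MCA205 is a mouse fibrosarcoma line, given to both groups of hosts. The hosts were ENT1KO mice (Slc29a1-/-, replicates 11, 12, 14 and 15), in which the gene of the nucleoside transporter ENT1 is disrupted, and C57Bl/6 WT mice (replicates 1, 2 and 3). Age and sex are not stated in the labels, nor is it stated that each sample is 1 animal, so a p-value covers only the spread among these 7 libraries, which may be technical. Where 4 ENT1KO and 3 WT values are listed, they follow the replicates in the order 11, 12, 14, 15 and 1, 2, 3.

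Glycolysis turns glucose into pyruvate in a chain of cytosolic reactions, most of them served by several isozymes encoded by separate genes. Activated T cells and tumour cells both raise it, and they export the lactate made from pyruvate. When oxygen is low, the prolyl hydroxylases encoded by the Egln genes slow down, HIF alpha subunits escape degradation, and HIF then induces glycolytic enzymes, transporters and a wider set of stress genes. Hif1a itself is regulated largely at the protein level, which RNA does not show.

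The libraries held 18624318 to 19660792 gene-assigned reads, taking the smallest normalized count of each library as 1 read. Slc29a1, the targeted gene, was at 13.2 to 17.6 TPM in ENT1KO and 49.7 to 58.9 TPM in WT. All 14 genes of a CD8 T cell marker list were higher in ENT1KO (limma-trend adjusted p under 0.05), and their summed level was 9050 to 11200 TPM in ENT1KO and 2830 to 6830 TPM in WT. All 17 tested genes of a fibroblast and tumour list were lower, at a summed 53.8, 166, 837 and 1.36 TPM in ENT1KO replicates 11, 12, 14 and 15 against 5840, 7300 and 3880 TPM in WT replicates 1, 2 and 3. All 15 macrophage and monocyte genes were lower as well, at 449, 544, 1320 and 116 TPM against 3660, 5350 and 3550 TPM. The most abundant genes of these lists were Trac (1635 ± 114 TPM in ENT1KO and 772 ± 335 TPM in WT, SD) and Trbc2 (1516 ± 137 and 687 ± 295 TPM), Postn (64.9 ± 96.3 and 1295 ± 457 TPM) and Col3a1 (66.1 ± 104 and 1251 ± 383 TPM), and Lyz2 (172 ± 139 and 1272 ± 305 TPM) and Apoe (175 ± 169 and 1021 ± 199 TPM). Of 9 tested neutrophil and mast cell genes 8 were lower, S100a9 and Mmp9 being the most abundant of them in WT, with Cpa3, Mcpt4 and Cma1 at 0 in ENT1KO replicate 15. Their list summed to 19.3 to 55.5 against 140 to 176 TPM, and most of the ENT1KO sum in replicates 11, 12 and 14 was Il1r2, which did not pass (29.7 ± 18.7 in ENT1KO and 29.8 ± 4.59 TPM in WT, SD). The dendritic list summed to 233 to 670 against 1110 to 1740 TPM, but only 3 of its 8 tested genes were lower, the MHC class II genes H2-Eb1, H2-Aa and H2-Ab1. Flt3, Clec9a, Itgax, Cd209a and Zbtb46 did not pass. Smaller lists differed too, as endothelial genes (Eng and Egfl7) summed to 4.55 to 12.8 against 30.5 to 50.2 TPM, and erythroid genes (Hbb-bs and Hba-a2) to 57.7 to 239 against 697 to 1970 TPM. B cell, CD4 and NK cell lists stayed at 3.88 to 18.8 TPM in all 7 libraries.

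Most of the 37 genes were lower in the ENT1KO libraries. 25 fell and 3 rose (limma-trend adjusted p under 0.05 over all 13798 genes), and 9 did not pass. Over all genes tested, 23.1% were called lower and 27.5% higher. The fitted difference is taken as ENT1KO minus WT of log2(TPM + 1), and its median was -0.79 for the 37 genes and 0.15 for all genes tested. Without the 4 genes that passed the filter through WT, 21 fell and 3 rose of 33, with a median of -0.65. All ENT1KO values lay below all WT values for 24 of the genes that fell and above them for the 3 that rose, against 24.9% and 30.3% of all genes. 14 fell by more than 2-fold on this scale, against 14.7% of all genes. Both counts include the 4 genes that passed through WT. Of the other 33, 20 lay wholly below WT and 10 fell by more than 2-fold. In these bulk samples fewer cells of a type and less RNA per cell cannot be told apart, and the part that RNA of other cells has in each difference was not tested. The same 25 genes were lower in the authors' deposited table, with Ddit4 and Higd1a in addition, and of the 3 higher ones Slc2a3 and Pfkp were higher there while Hk1 did not pass. That table called 25.8% of its genes lower and 16.5% higher.

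The count depended on the scale. On normalized counts, where the median of all genes is 0.0, 27 of the 37 were lower and 2 higher, against 28% and 21% of all genes (limma adjusted p under 0.05). With levels taken relative to the CD8 T cell list, which moves the median of all genes to -1.05, 34 were lower and 0 higher, at the unadjusted threshold also 34 and 0, against 67.1% and 0.159% of all genes.

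**Figure D1:**
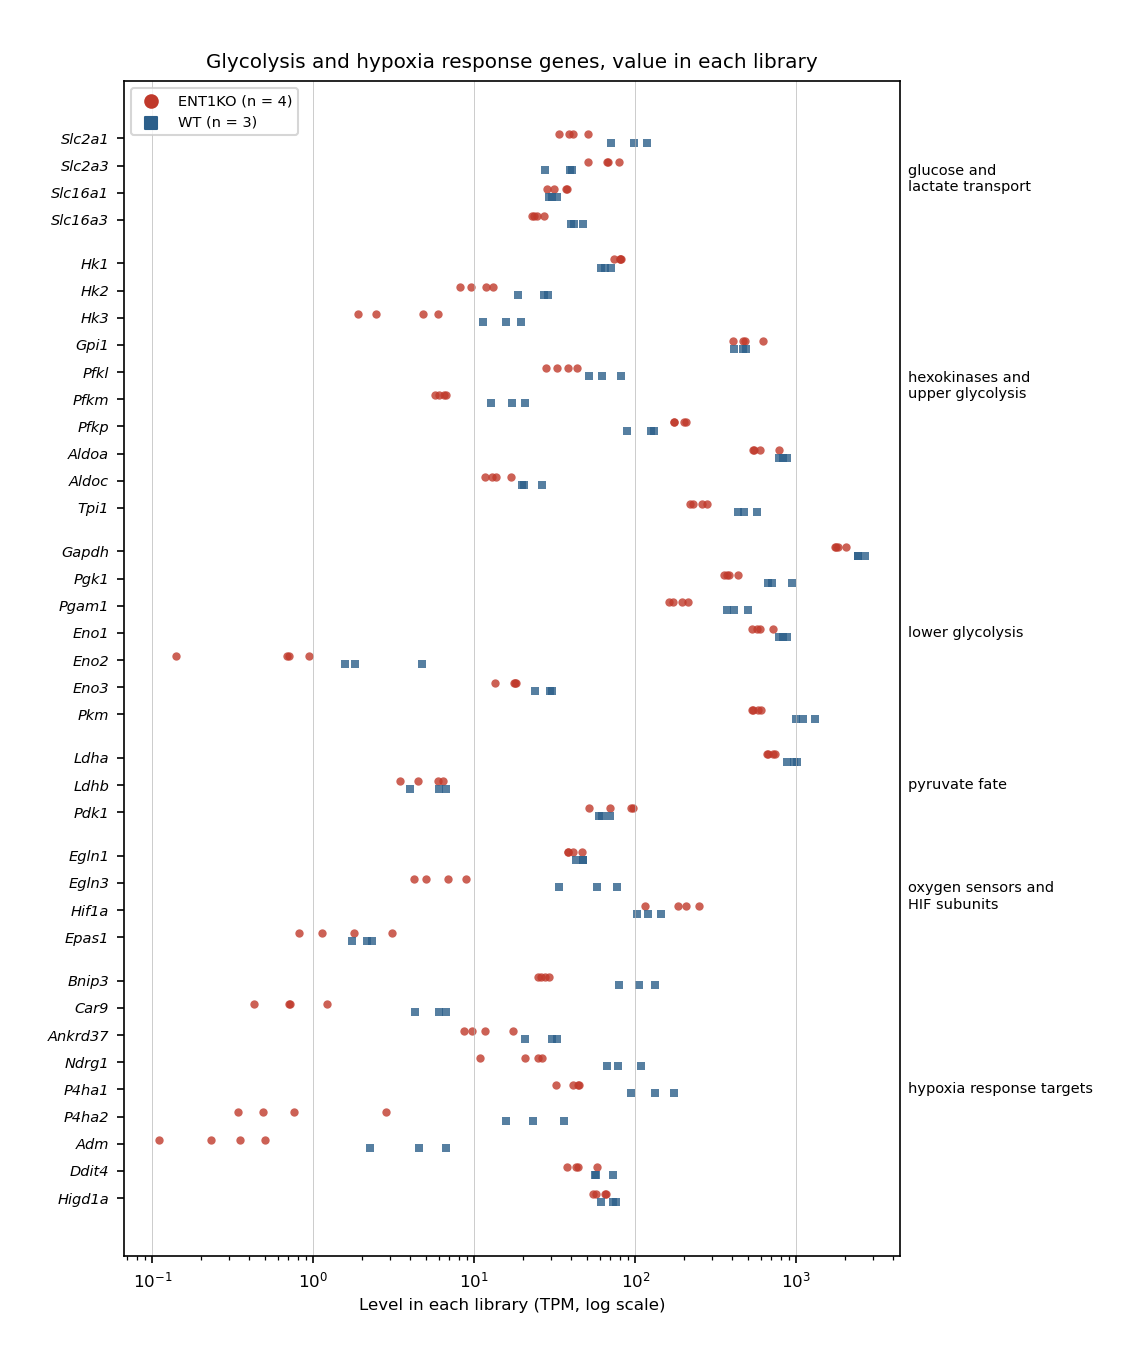
Level of each of the 37 genes in each library (TPM, log axis), ordered by role, with ENT1KO as circles (n = 4) and WT as squares (n = 3). The circles lie to the left of the squares for 24 genes, and to the right for Slc2a3, Hk1 and Pfkp. Over all genes tested 24.9% and 30.3% did so. The 24 include Eno2, Car9, P4ha2 and Adm, which passed the filter through WT.

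The pair of glucose transporters moved in opposite directions. Slc2a1 (ENSMUSG00000028645.12, GRCm39 chr4:118965908-118995180) encodes GLUT1, the widely expressed transporter that HIF and growth signals induce. It was at 40.8, 33.4, 38.7 and 50.9 TPM across ENT1KO against 98.2, 119 and 70.1 TPM across WT. Each ENT1KO library was below each WT library, and the gene fell by 1.19 on the log2 scale (SE 0.20, limma-trend adjusted p = 0.00278). Slc2a3 (ENSMUSG00000003153.11, GRCm39 chr6:122704768-122778599) encodes GLUT3, a high-affinity transporter of neurons and lymphocytes. Its levels were 67.6, 79.4, 50.8 and 66.6 TPM in ENT1KO and 40.7, 27.3 and 39.04 TPM in WT, again without overlap. It rose by 0.87 (SE 0.19, limma-trend adjusted p = 0.00647). Slc2a1 thus made up 38.4 ± 6.48% (SD, n = 4) of the summed TPM of both transporters in ENT1KO and 72.1 ± 8.63% (SD, n = 3) in WT. The share ran from 29.6 to 43.3% in ENT1KO and from 64.2 to 81.3% in WT (exact two-sided permutation p = 0.0286, the smallest that 35 splits can give, and 0.0476 after Benjamini-Hochberg adjustment over 10 family shares). Relative to the CD8 T cell marker list, the difference of Slc2a3 turned to -0.32 and did not pass.

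Of the monocarboxylate transporters, which carry lactate and pyruvate, the export isoform fell and the other did not pass. Slc16a3 (MCT4, the low-affinity exporter of glycolytic cells) stood at 27.2, 22.9, 23.4 and 24.5 TPM across ENT1KO against 40.1, 47.3 and 41.8 TPM across WT. The groups did not overlap, with a log2 difference of -0.79 (SE 0.11, limma-trend adjusted p = 0.0015). Slc16a1 (MCT1) was at 37.7, 28.3, 31.1 and 36.9 TPM in ENT1KO and 30.2, 29.1 and 32.5 TPM in WT, overlapping ranges with a log2 difference of 0.12 (SE 0.12, limma-trend adjusted p = 0.445). Slc16a1 held 57.6 ± 1.98% (SD, n = 4) of the pair in ENT1KO and 41.6 ± 3.04% (SD, n = 3) in WT (exact two-sided permutation p = 0.0286, adjusted 0.0476).

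Hexokinases, which trap glucose in the cell by phosphorylating it, differed by isozyme. Hk2, the inducible isozyme of activated and tumour cells, was at 9.49, 8.15, 13.1 and 11.7 TPM across ENT1KO against 27.3, 28.7 and 18.8 TPM across WT, a fall of 1.15 on the log2 scale (SE 0.20, limma-trend adjusted p = 0.00313). Hk3, an isozyme of myeloid cells, was at 4.8, 2.45, 5.98 and 1.9 TPM against 15.6, 19.5 and 11.3 TPM and fell by 1.85 (SE 0.34, limma-trend adjusted p = 0.00365). Within ENT1KO it was lowest in replicate 15 and highest in replicate 14, the libraries with the lowest and highest macrophage list. Replicates 11 and 12 did not keep that order, as the list summed to 449 and 544 TPM and Hk3 was higher in replicate 11. Hk1 (ENSMUSG00000037012.19, GRCm39 chr10:62104634-62215687), the constitutive isozyme, was the most abundant of the 3 in each library, at 74.1, 81.05, 80.5 and 80.3 TPM against 64.5, 61.3 and 70.4 TPM. It rose by 0.27 (SE 0.09, limma-trend adjusted p = 0.0386), a call lost when any library other than WT replicate 3 was left out, with a looser filter on low values, with quantile normalization and on normalized counts. Relative to the CD8 T cell list Hk1 stood at -0.92, the opposite sign. Hk1 held 84.6 ± 3.17% (SD, n = 4) of hexokinase TPM in ENT1KO and 62.0 ± 7.25% (SD, n = 3) in WT (exact two-sided permutation p = 0.0286, adjusted 0.0476), while Hk2 held 11.3% against 23.4% and Hk3 4.03% against 14.6%.

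Phosphofructokinase, the committed and most regulated step, showed the same kind of split. Its platelet-type isozyme Pfkp (ENSMUSG00000021196.15, GRCm39 chr13:6629804-6698813), the most abundant in all 7 libraries, was at 199, 175, 173 and 206 TPM across ENT1KO against 125, 88.5 and 131 TPM across WT. It rose by 0.73 (SE 0.15, limma-trend adjusted p = 0.00635), and stood at -0.47 relative to the CD8 T cell list, where it did not pass. The liver-type Pfkl was at 32.5, 27.9, 38.3 and 43.2 TPM against 62.0, 81.6 and 51.6 TPM and fell by 0.85 (SE 0.19, limma-trend adjusted p = 0.00818). Pfkm, the muscle-type isozyme, was at 6.45, 5.66, 6.65 and 6.03 TPM against 17.2, 20.7 and 12.7 TPM and fell by 1.29 (SE 0.17, limma-trend adjusted p = 0.0015). None of the 3 isozymes overlapped between genotypes. Pfkl held 15.4 ± 2.18% (SD, n = 4) of the family in ENT1KO and 33.2 ± 8.51% (SD, n = 3) in WT (exact two-sided permutation p = 0.0286, adjusted 0.0476), and Pfkp 81.9% against 58.2%.

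**Figure D2:**
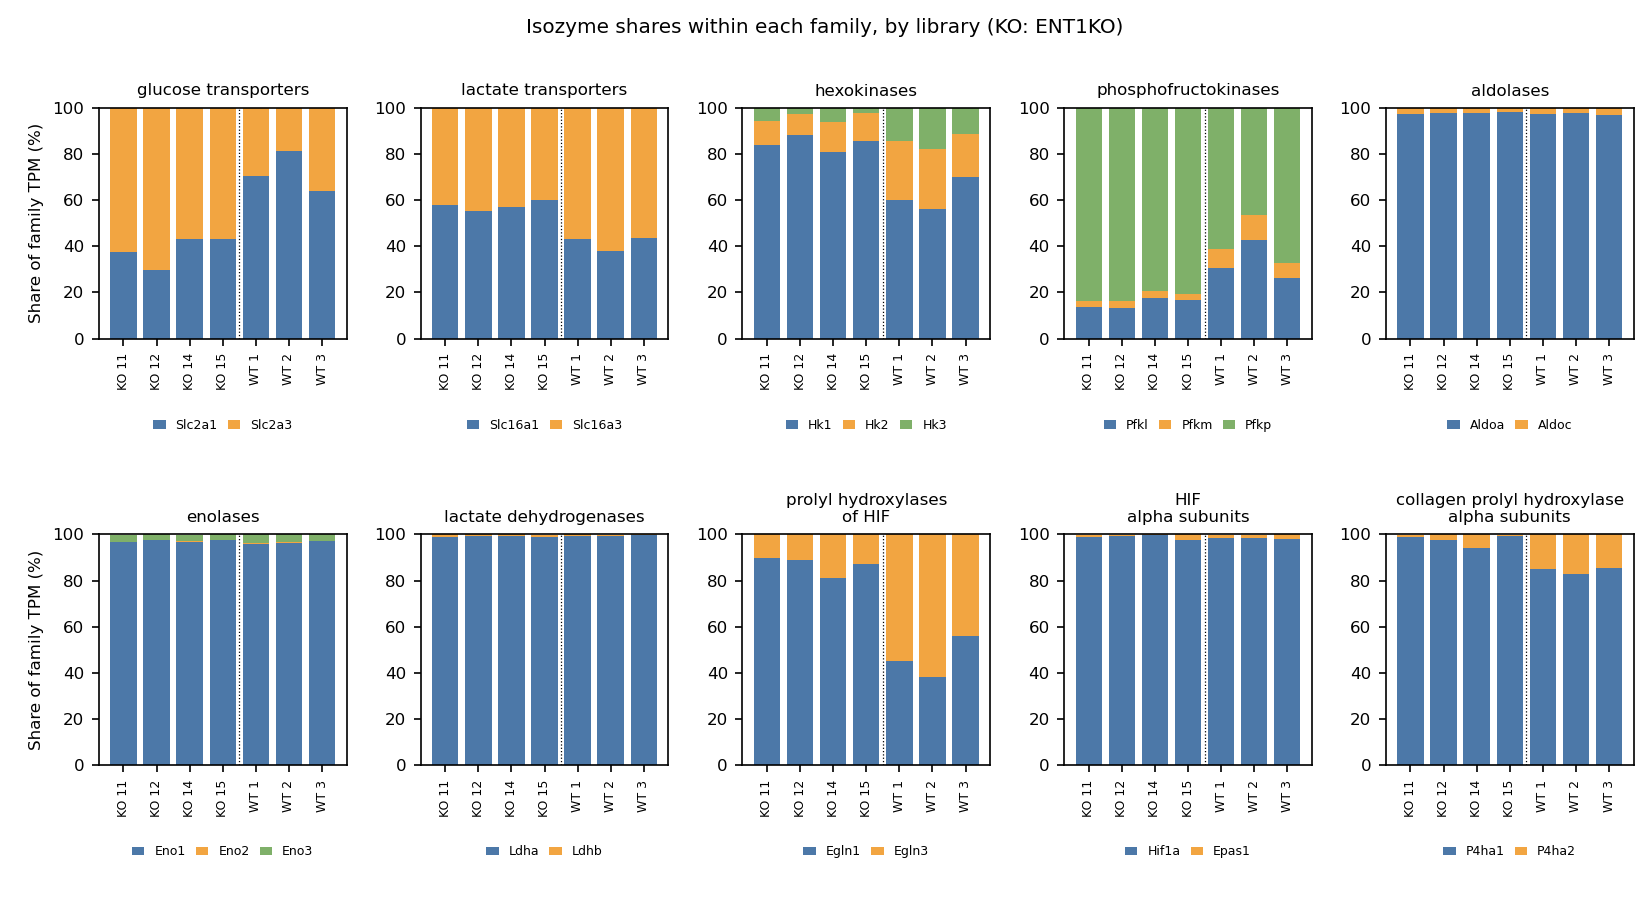
Share of each isozyme in the summed TPM of its family (%), 1 stacked bar per library, with ENT1KO libraries left of the dotted line and WT right of it. In 6 of 10 families the share of the first-listed isozyme does not overlap between genotypes. Among them is the pair of P4ha1 and P4ha2, where P4ha2 passed the filter through WT. Aldolases, enolases, lactate dehydrogenases and HIF alpha subunits are each dominated by 1 gene in all 7 libraries.

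The remaining upper enzymes fell or did not pass. Tpi1, which interconverts the triose phosphates, was at 246 ± 27.9 (SD, n = 4) against 493 ± 72.1 TPM (SD, n = 3) and fell by 1.0 on the log2 scale (limma-trend adjusted p = 0.00154). Aldoc, the brain-type aldolase, fell by 0.65 from 22.2 ± 3.54 to 13.8 ± 2.19 TPM (limma-trend adjusted p = 0.0104). Aldoa, the main aldolase, which held 97.8% of aldolase TPM in ENT1KO and 97.4% in WT (exact two-sided permutation p = 0.314, adjusted 0.381), was at 616 ± 114 against 824 ± 45.2 TPM (log2 difference -0.43, limma-trend adjusted p = 0.0356). Its groups overlapped, since ENT1KO replicate 15 was at 784 TPM and WT replicate 1 at 781 TPM, and its call was lost when any library other than ENT1KO replicate 15 was left out. Gpi1, which isomerizes glucose 6-phosphate, was at 492 ± 90.1 against 453 ± 41.0 TPM (log2 difference 0.11, SE 0.15, limma-trend adjusted p = 0.576) and changed sign on several scales.

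All 7 genes of the lower part of glycolysis fell, where 23.1% of all genes tested were called lower. Eno2, 1 of the 7, passed the filter through WT. Gapdh, the dehydrogenase often taken as a reference gene, was at 1732, 1762, 1824 and 2029.9 TPM across ENT1KO against 2420.0, 2658 and 2429.8 TPM across WT. The ranges did not overlap, and the log2 difference was -0.45 (SE 0.10, limma-trend adjusted p = 0.00708). Pgam1, the mutase, was at 162, 172, 212 and 194 TPM against 408, 503 and 373 TPM (log2 difference -1.20, SE 0.14, limma-trend adjusted p = 0.00127). Pkm, pyruvate kinase of muscle and proliferating cells, was at 537, 528, 578 and 607 TPM against 1093, 1308 and 992 TPM and fell by 1.0 (SE 0.12, limma-trend adjusted p = 0.00127). The table sums its splice forms, so the M1 and M2 forms were not separated. Pgk1, the first ATP-making kinase, was at 386 ± 34.2 against 769 ± 144 TPM and fell by 0.98.

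Enolase genes fell at each of 3 very different levels. Eno1, the ubiquitous form, was at 603 ± 80.8 against 824 ± 48.4 TPM (log2 difference -0.46, limma-trend adjusted p = 0.0157, and 0.0555 without WT replicate 2). Eno3, the muscle form, was at 16.8 ± 2.24 against 27.9 ± 3.49 TPM (log2 difference -0.70, limma-trend adjusted p = 0.00558). Eno2, the neuronal form, was at 0.14 to 0.94 TPM in ENT1KO, from 6.1 to 23.9 normalized counts, and at 1.58 to 4.74 TPM in WT (log2 difference -1.12, limma-trend adjusted p = 0.0204, and 0.0505 without ENT1KO replicate 11). Eno2 passed the filter through WT, and lost its call with quantile normalization (limma-trend adjusted p = 0.0865). Eno1 held 97.2 ± 0.306% (SD, n = 4) and 96.4 ± 0.625% (SD, n = 3) of the family, with overlapping values (exact two-sided permutation p = 0.114, adjusted 0.163). Summed over the 17 glycolytic enzymes from the hexokinases to Pkm, the level was 5009, 4926, 5150.0 and 6044 TPM across ENT1KO against 7481, 8479 and 7379 TPM across WT, a ratio of means of 1.47 in favour of WT.

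At the fate of pyruvate, 1 of 3 genes passed. Ldha, the lactate dehydrogenase subunit of glycolytic cells, was at 655, 671, 732 and 716 TPM across ENT1KO against 871, 1006 and 972 TPM across WT, and fell by 0.45 without overlap (SE 0.10, limma-trend adjusted p = 0.00661). Ldhb, the subunit of oxidative tissues, was rare at 5.05 ± 1.34 against 5.58 ± 1.40 TPM (limma-trend adjusted p = 0.673). Ldha made up 99.3 ± 0.195% (SD, n = 4) and 99.4 ± 0.153% (SD, n = 3) of the pair (exact two-sided permutation p = 0.343, adjusted 0.381). Pdk1, the kinase through which HIF holds pyruvate back from mitochondria, was at 94.2, 51.8, 69.5 and 96.6 TPM in ENT1KO and 61.9, 70.0 and 59.5 TPM in WT. ENT1KO replicate 12 lay below the WT range, replicate 14 within it, and replicates 11 and 15 above it. The log2 difference was 0.25 (SE 0.21, limma-trend adjusted p = 0.356).

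**Figure D3:**
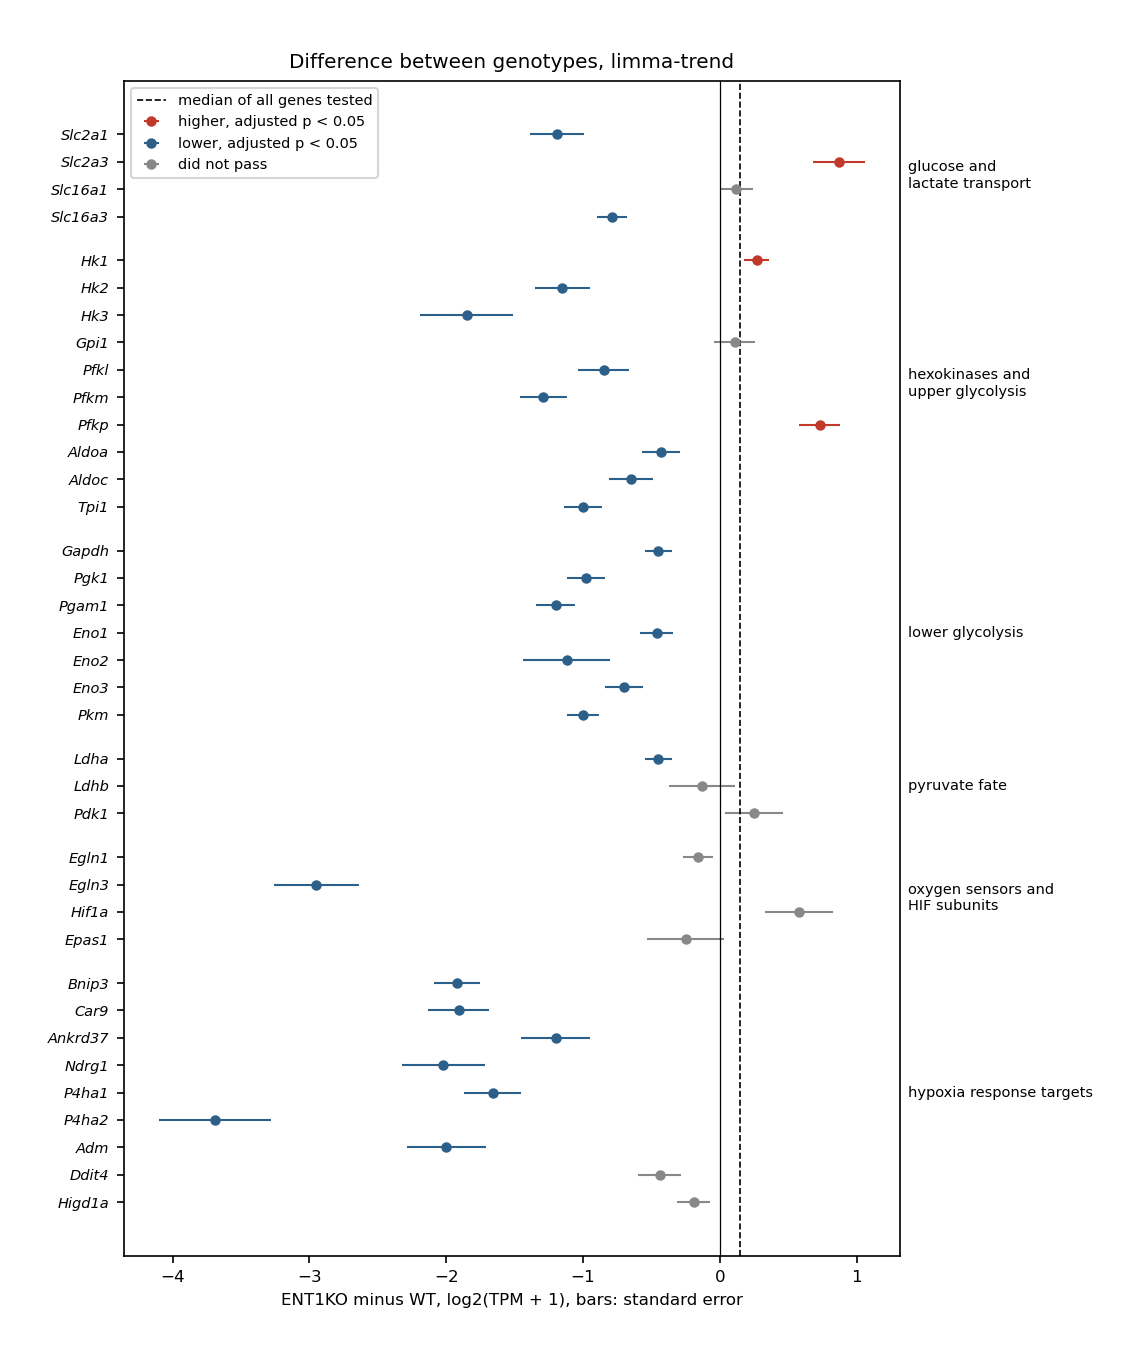
Log2 difference, ENT1KO minus WT, of each gene on the log2(TPM + 1) scale with its standard error (bars), coloured by call. The hypoxia response targets reach -3.69 (P4ha2), Hif1a and Pdk1 lie right of 0 without passing, and the dashed line marks the median of all genes tested, 0.15.

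Among the oxygen sensors and HIF subunits, Egln3 fell and the other 3 genes did not pass. Egln3 (PHD3; ENSMUSG00000035105.6, GRCm39 chr12:54225767-54250646), a prolyl hydroxylase that HIF itself induces, was at 4.23, 5, 8.9 and 6.87 TPM across ENT1KO against 57.95, 76.6 and 33.8 TPM across WT. Its mean was 8.98 times as high in WT, with a log2 difference of -2.95 (SE 0.31, limma-trend adjusted p = 0.00121). Egln1 (PHD2), the main sensor in normal oxygen, was at 37.9, 41.02, 38.1 and 46.7 TPM against 47.5, 47.2 and 42.8 TPM, overlapping ranges (log2 difference -0.16, SE 0.11, limma-trend adjusted p = 0.228). Egln1 therefore held 86.8 ± 4.01% (SD, n = 4) of the pair in ENT1KO and 46.3 ± 8.96% (SD, n = 3) in WT (exact two-sided permutation p = 0.0286, adjusted 0.0476), the widest gap of the 10 families.

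Hif1a mRNA (ENSMUSG00000021109.14, GRCm39 chr12:73948149-73994304) did not pass. It was at 205, 247, 184 and 115 TPM across ENT1KO against 144, 103 and 120.4 TPM across WT. ENT1KO replicates 11, 12 and 14 were above all WT libraries and replicate 15 was within the WT range (log2 difference 0.58, SE 0.25, limma-trend adjusted p = 0.0852). Without ENT1KO replicate 15 the difference was 0.79 and passed (limma-trend adjusted p = 0.0106), and relative to the CD8 T cell list it was -0.62 and did not pass. Epas1 (HIF-2 alpha), the alpha subunit typical of endothelial and myeloid cells, was at 1.78, 1.13, 0.81 and 3.07 TPM against 2.16, 1.74 and 2.32 TPM (limma-trend adjusted p = 0.477). Hif1a made up 98.9 ± 1.02% (SD, n = 4) and 98.3 ± 0.209% (SD, n = 3) of the alpha subunit TPM (exact two-sided permutation p = 0.4, the same after adjustment).

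Of 9 hypoxia response targets 7 fell and none rose in limma-trend, where none had a positive log2 difference. Over all genes tested 23.1% were called lower and 27.5% higher. Leaving aside Car9, P4ha2 and Adm, which passed the filter through WT, Bnip3, Ankrd37, Ndrg1 and P4ha1 of 6 fell. The 9 genes summed to 196, 209, 216 and 210.4 TPM across ENT1KO against 529, 625 and 399.9 TPM across WT. These sums include Ddit4 and Higd1a, which did not pass and were among the most abundant of the 9 in ENT1KO. They also include Car9, P4ha2 and Adm.

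To show the regulatory sequence in front of genes that moved together, the 250 bases before the transcription start are printed for 2 of these targets, for Slc2a1 and for the glycolytic enzyme gene Pgk1, all of which fell, and for Pfkp, which rose. They come from RefSeq on GRCm38.p6, whose coordinates are not interchangeable with the GRCm39 coordinates of the deposited tables. Capitals mark matches to ACGTG or GCGTG, the core that HIF binds, on either strand, so reverse complements are marked too, and a palindromic match counts once on each strand.
Bnip3 (chr7:138909507-138909756, - strand): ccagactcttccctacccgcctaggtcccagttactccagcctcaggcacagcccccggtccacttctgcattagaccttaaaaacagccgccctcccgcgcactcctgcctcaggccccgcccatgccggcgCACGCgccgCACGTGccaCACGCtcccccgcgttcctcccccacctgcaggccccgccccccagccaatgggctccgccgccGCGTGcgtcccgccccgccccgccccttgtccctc
P4ha2 (chr11:54100674-54100923, + strand): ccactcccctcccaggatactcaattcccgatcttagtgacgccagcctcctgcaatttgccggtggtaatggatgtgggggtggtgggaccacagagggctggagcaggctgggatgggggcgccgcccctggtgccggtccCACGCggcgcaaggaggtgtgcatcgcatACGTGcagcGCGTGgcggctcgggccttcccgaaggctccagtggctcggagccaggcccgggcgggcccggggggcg
Slc2a1 (chr4:119108495-119108744, + strand): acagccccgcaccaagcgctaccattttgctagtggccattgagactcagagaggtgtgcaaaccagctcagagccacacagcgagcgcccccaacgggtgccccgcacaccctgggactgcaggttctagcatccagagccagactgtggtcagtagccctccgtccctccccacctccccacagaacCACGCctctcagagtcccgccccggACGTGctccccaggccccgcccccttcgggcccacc
Pgk1 (chrX:106186850-106187099, + strand): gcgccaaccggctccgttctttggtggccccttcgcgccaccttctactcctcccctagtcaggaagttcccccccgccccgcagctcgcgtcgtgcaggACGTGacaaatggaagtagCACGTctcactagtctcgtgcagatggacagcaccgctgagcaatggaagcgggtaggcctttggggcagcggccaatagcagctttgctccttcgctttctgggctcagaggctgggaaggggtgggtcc
Pfkp (chr13:6648772-6649021, - strand): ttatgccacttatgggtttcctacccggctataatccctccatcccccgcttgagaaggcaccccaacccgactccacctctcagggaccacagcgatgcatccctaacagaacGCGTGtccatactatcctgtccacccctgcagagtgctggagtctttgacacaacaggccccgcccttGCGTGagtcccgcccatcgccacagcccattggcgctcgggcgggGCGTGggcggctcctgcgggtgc
In these windows Bnip3 had 5 matches, P4ha2 and Pfkp 3 each, and Slc2a1 and Pgk1 2 each. ACGTG was in the Bnip3, P4ha2, Slc2a1 and Pgk1 windows, and the 3 matches of Pfkp were all GCGTG. Over the 34 of 37 genes that matched the promoter table, 31 (91.2%) had either core and 20 (58.8%) had ACGTG in at least 1 window of 250 bases. Among 9906 tested genes with such a window the shares were 60.8% and 24.9%. The 37 genes were chosen by name, among them genes that hypoxia induces, so their higher shares may follow from the choice. ACGTG was present for 16 of 24 genes that fell, neither of 2 that rose and 4 of 8 that did not pass. Slc2a3, which also rose, had no window. The printed windows are examples, and Tpi1 and Eno2 fell with neither core in their windows. A match is a description of the letters and not a bound site.

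Bnip3 (ENSMUSG00000078566.9, GRCm39 chr7:138492565-138511248), a mitochondrial receptor for mitophagy, was at 27.3, 24.7, 29.05 and 25.8 TPM across ENT1KO against 105, 133 and 79.2 TPM across WT. The 4 ENT1KO values lay close together, well below each WT value, and its log2 difference was -1.92 (SE 0.17, limma-trend adjusted p = 0.00121). Ndrg1, a stress-induced growth regulator, was at 20.6, 26.3, 24.8 and 10.9 TPM against 78.5, 108 and 66.4 TPM and fell by 2.02 (SE 0.30, limma-trend adjusted p = 0.002). Ankrd37, a small ankyrin repeat protein gene and direct HIF target, was at 8.65, 9.69, 11.7 and 17.3 TPM against 32.8, 30.6 and 20.6 TPM and fell by 1.20 (SE 0.25, limma-trend adjusted p = 0.00587). None of these 3 genes overlapped between genotypes, and Ankrd37 in ENT1KO replicate 15 came nearest to WT.

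P4ha1 and P4ha2 encode the catalytic subunits of collagen prolyl 4-hydroxylase, which matrix-making cells need for stable collagen. P4ha1 was at 41.0, 32.0, 44.0 and 44.9 TPM across ENT1KO against 133, 174 and 93.6 TPM across WT (log2 difference -1.66, SE 0.21, limma-trend adjusted p = 0.00137). P4ha2 (ENSMUSG00000018906.15, GRCm39 chr11:53990921-54022491) was at 0.49, 0.76, 2.82 and 0.34 TPM against 23.3, 35.9 and 15.7 TPM, the largest difference of the 37 genes at -3.69 (SE 0.41, limma-trend adjusted p = 0.00121). On TPM the order of P4ha2 in ENT1KO replicates, with 14 highest and 15 lowest, was that of the fibroblast and tumour list. On normalized counts replicate 11 was lowest, at 5.08 against 10.8 in replicate 15, so the lower end of that order rests on few reads. P4ha1 was as high in replicate 15 as in replicate 14. P4ha1 held 97.4 ± 2.40% (SD, n = 4) of the pair in ENT1KO and 84.5 ± 1.47% (SD, n = 3) in WT (exact two-sided permutation p = 0.0286, adjusted 0.0476). P4ha2 passed the filter through WT, so this difference in share follows in part from the filter.

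Car9 and Adm were low throughout. Car9, a membrane carbonic anhydrase used as a hypoxia marker of tumours, was at 0.72, 0.43, 0.71 and 1.21 TPM in ENT1KO and 6.66, 6.01 and 4.28 TPM in WT (log2 difference -1.91, limma-trend adjusted p = 0.00121). Adm, the vasodilator peptide adrenomedullin, was at 0.11, 0.35, 0.5 and 0.23 TPM in ENT1KO, no more than 8.62 normalized counts in a library, and at 4.52, 6.65 and 2.26 TPM in WT (log2 difference -2.0, limma-trend adjusted p = 0.00177). On normalized counts the differences of Car9, P4ha2, Adm and Eno2 were larger, at -3.44, -5.45, -4.27 and -2.49, and with a pseudocount of 0.1 TPM they were -2.78, -4.72, -3.5 and -1.98. Ddit4, an mTORC1 inhibitor that many stresses induce, and Higd1a, a mitochondrial hypoxia protein, did not pass, at 45.6 ± 8.80 against 62.0 ± 9.59 TPM and 60.5 ± 5.64 against 69.5 ± 7.69 TPM (limma-trend adjusted p = 0.0531 and 0.194). Both were called lower on normalized counts (limma adjusted p = 0.0176 and 0.0223).

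**Figure D4:**
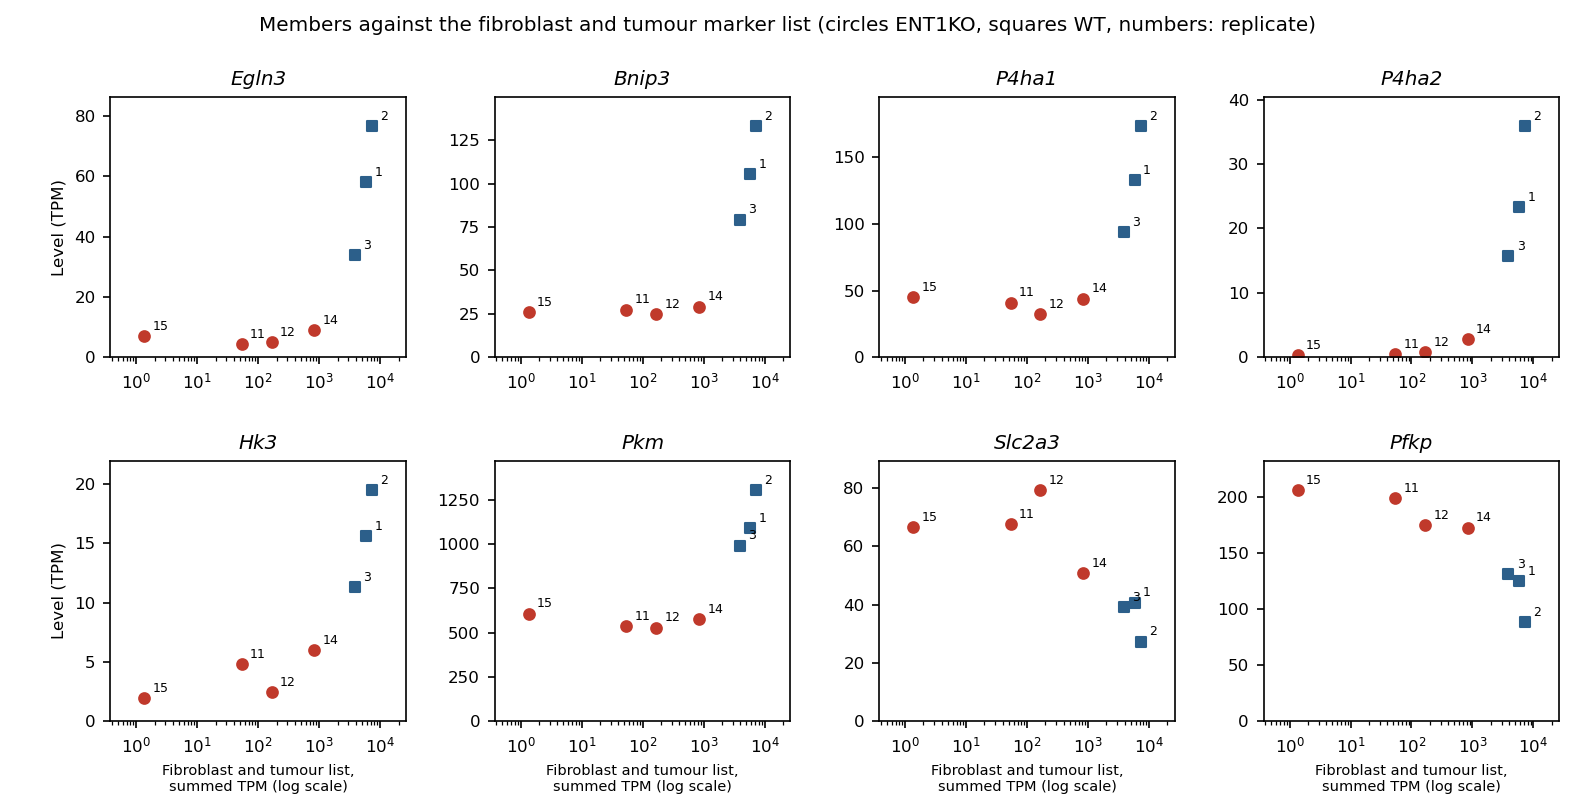
Level of 8 genes (TPM) in each library against the summed TPM of the fibroblast and tumour list (log axis), with circles for ENT1KO, squares for WT and replicate numbers beside them. Over the ENT1KO libraries the list runs from 1.36 to 837 TPM, Bnip3 from 24.7 to 29.05 TPM and Egln3 from 4.23 to 8.9 TPM. P4ha2 runs from 0.34 to 2.82 TPM in the order of the list, which normalized counts do not keep for replicates 11 and 15. WT replicate 2 is highest for Egln3, Bnip3, P4ha1, P4ha2, Hk3 and Pkm and lowest for Slc2a3 and Pfkp.

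Many of the levels moved with the cell type markers across the WT libraries. WT replicate 2 had the highest fibroblast and tumour sum and WT replicate 3 the lowest, and 16 of the 25 genes that fell (64%) followed the same order, as did 66% of all 3182 genes called lower and 20.2% of all genes tested. Within ENT1KO, replicate 14 had the highest fibroblast and macrophage sums and replicate 15 the lowest. Replicate 14 was the highest ENT1KO library for 11 of the 25 genes, against 74.1% of all genes called lower. Replicate 15 was the highest for another 11. In ENT1KO replicate 15 all 18 fibroblast and tumour genes were below 1 TPM, and Col5a1, Col6a1, Lum, Mgp and Thbs2 were at 0. Against the WT mean, that library held 24.4% of Bnip3, 33.7% of P4ha1, 53.1% of Slc2a1, 53.7% of Pkm and 56.6% of Pgk1. It held 12.2% of Egln3, 12.3% of Hk3, 5.14% of Adm and 1.36% of P4ha2. Other genes that fell came nearer to the WT mean there, with 95.1% of Aldoa, 86.9% of Eno1, 81.1% of Gapdh and 75.4% of Ldha. These genes are examples, and which cells the RNA of any of the 37 genes came from was not tested.

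With the level of the fibroblast and tumour list as a covariate, no member passed in limma-trend and no gene of the 13798 did. In that fit 18 of the 37 genes were lower and 1 higher at an unadjusted p under 0.05, where 5.98% and 3.59% of all genes were, and the median of the 37 genes was -0.87 against 0.10 for all genes. With the macrophage list level 20 were lower and 1 higher at an unadjusted p under 0.05 (6.46% and 4.53% of all genes), and none passed after adjustment, where 0.00725% of all genes were higher and 0.0145% lower. The list levels do not overlap between genotypes, so such a covariate takes up much of the genotype term. The differences of Slc2a1, Bnip3, P4ha1 and Pkm were -1.46, -1.61, -1.56 and -0.98 with the fibroblast covariate, against -1.19, -1.92, -1.66 and -1.0 without it. Those of Hk3, Ndrg1 and P4ha2 shrank to -0.59, -0.71 and -1.79, and that of Hif1a was 1.22 (limma-trend unadjusted values).

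**Figure D5:**
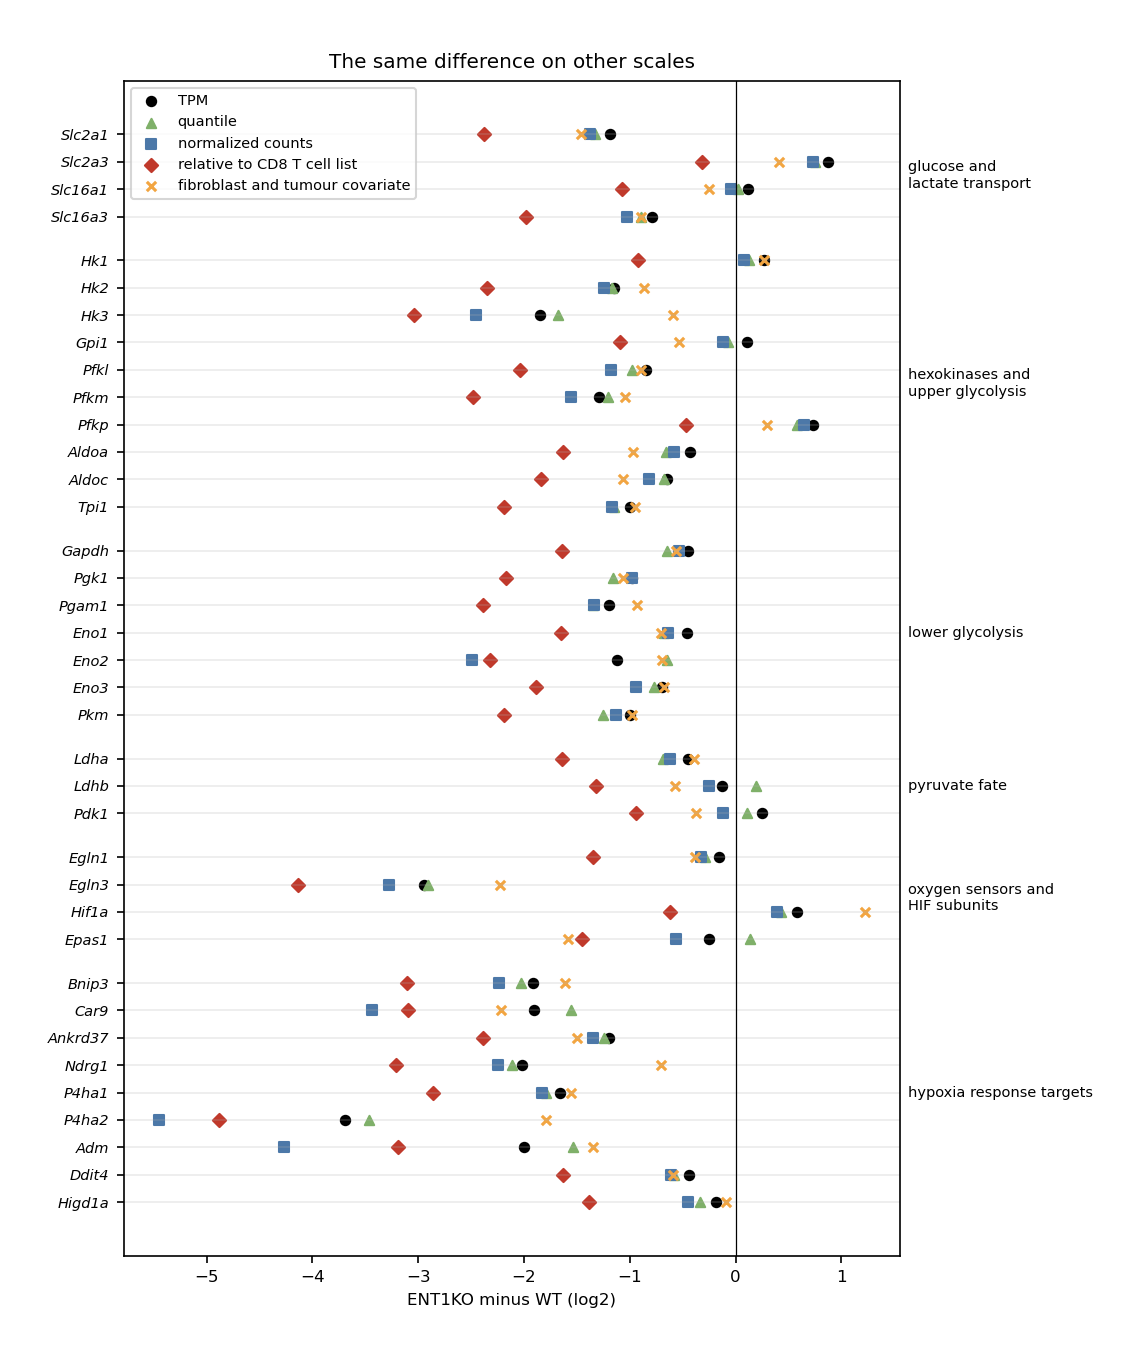
Log2 difference, ENT1KO minus WT, of each gene on TPM, after quantile normalization, on normalized counts, relative to the CD8 T cell marker list, and with the fibroblast and tumour list as a covariate. Relative to the CD8 T cell list all 37 differences are negative, as are those of 13323 of the 13798 genes tested, and on the other 4 scales Slc2a3, Hk1, Pfkp and Hif1a stay right of 0.

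Other genes of the pathway were listed apart from the 37, and their counts are read against the 23.1% of all genes called lower and 27.5% called higher. Among other hypoxia-induced genes 29 were tested, of which 17 were lower and 3 higher (median difference -0.81). Cav1 (caveolin, of stromal and endothelial cells) had the lowest difference, at 22.3 ± 28.2 against 316 ± 94.8 TPM (limma-trend adjusted p = 0.0111). Rora, a nuclear receptor, and Car12, a carbonic anhydrase, had the highest of the 3 rises, at 14.2 ± 2.69 against 7.96 ± 3.24 TPM and 3.87 ± 0.729 against 1.93 ± 0.721 TPM (limma-trend adjusted p = 0.0312 and 0.0256). Relative to the CD8 T cell list none of the 78 genes of these lists had a positive difference, where 13323 of all 13798 genes were negative.

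Of 9 tested glycolysis regulators 3 were lower and 2 higher, near the shares of all genes. Bpgm (the erythroid bisphosphoglycerate mutase), Slc2a6 and Pfkfb4 fell, Bpgm from 47.99 ± 8.53 to 13.9 ± 2.69 TPM and Slc2a6 from 4.56 ± 0.802 to 1.14 ± 0.506 TPM (limma-trend adjusted p = 0.00121 and 0.00275). Pfkfb1 and Pfkfb2, which make the activator of phosphofructokinase, rose from 4.23 ± 0.937 to 6.78 ± 0.812 TPM and from 4.55 ± 0.670 to 6.61 ± 0.845 TPM (limma-trend adjusted p = 0.0261 and 0.0477). Among 12 tested genes of pyruvate entry to mitochondria 1 rose and none fell in limma-trend: Pdhb, a pyruvate dehydrogenase subunit, at 91.5 ± 5.04 against 73.2 ± 5.82 TPM (limma-trend adjusted p = 0.0264). The median of that list was -0.04.

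In the pentose phosphate and glycogen branches 15 genes were tested, with 5 lower, 2 higher and a median of -0.13, against 23.1% lower, 27.5% higher and a median of 0.15 over all genes. Gys1 (glycogen synthase) and Pgm1 (phosphoglucomutase) had the lowest differences, at 4.96 ± 0.697 against 13.5 ± 2.78 TPM and 26.7 ± 1.69 against 44.8 ± 6.85 TPM (limma-trend adjusted p = 0.00166 and 0.00274). Rpia and Rpe, of the non-oxidative pentose branch, were the rises, at 39.6 ± 2.87 against 28.0 ± 6.27 TPM and 40.4 ± 4.03 against 32.2 ± 2.49 TPM (limma-trend adjusted p = 0.0255 and 0.0431). Of 13 tested HIF regulators 3 rose and 1 fell, with a median of 0.13. Over all genes 27.5% were called higher and 23.1% lower, with a median of 0.15, so falls were rarer in this list. The coactivator gene Ep300 (47.9 ± 10.2 against 26.9 ± 3.62 TPM) and its relative Crebbp (30.4 ± 9.97 against 17.1 ± 4.49 TPM) had the largest rises (limma-trend adjusted p = 0.00763 and 0.0431), and Elob, an elongin of the VHL complex, fell from 289 ± 29.4 to 227 ± 15.9 TPM (limma-trend adjusted p = 0.0306). Over these 5 lists 11 genes rose and 26 fell of 78 tested, and the count of rises was 1 without WT replicate 2 and 5 on normalized counts.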

How the data were processed

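Per the labels, libraries were poly(A)-selected, with 75 ng of RNA as input. The authors deposited TPM per gene. Their comparison table holds, per the file headers, a normalized signal per sample (read counts over a size factor), log2 fold changes and their standard errors, a test statistic (a score) and p-values. Tools listed without roles in the submitters' processing notes are Trimmomatic (0.35 and 0.38), STAR (2.7.1a), RSEM, DESeq2 (1.30.1) and DESeq, with the build GRCm39. The annotation release was not stated. TPM columns share 1 total, so a rise of some genes lowers the others.

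Genotypes were compared with limma-trend (limma 3.58.1, R 4.3.3, robust) on log2(TPM + 1) for all genes reaching 1 TPM in 3 samples or more, with Benjamini-Hochberg adjustment at 0.05. The pseudocount understates the change of low genes. Depth was read from the smallest normalized count (100% of values whole within a tolerance of 0.01), but the check for whole reads did not accept 2 WT columns, so no count test was run. Family shares are percentages of summed TPM held by the first-listed isozyme, compared by exact two-sided permutation over 35 splits. The scripts were tested on simulated data. The alternatives were pseudocounts of 0.1 and 5, a looser filter (above 0 in 1 sample), a stricter one (5 TPM in 3 samples), quantile normalization, normalized counts, levels relative to the CD8 T cell list, 2 marker list covariates, and each library left out in turn. Values relative to the CD8 T cell list share that list's spread, so their p-values are too small.

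Members, lists, families and tests were chosen with earlier results of these data known. Every member is named. All 7 values are given for the 12 called members with the largest differences, for isozymes of families whose shares do not overlap, and for Hif1a, Slc2a1, Hk2, Ldha and Gapdh. Pkm, Pdk1 and Epas1 were added to these after their values were seen, as were the genes named at 0. Of each other pathway list the 2 highest and 2 lowest called differences are named, except 1 gene that is not reported here, and of each marker list that differed the 2 most abundant in WT, with Il1r2 and the other dendritic genes added after their values were seen.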

Additional observations from a re-analysis of the deposited data

Results flagged for a closer look

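Of 47 values checked within ENT1KO (37 genes and 10 family shares), 3 had 1 library set far apart from the other 3, where chance gives about 1 in 20. Hk1 was at 74.14 TPM in replicate 11, below replicates 12, 14 and 15, which lay between 80.3 and 81.05 TPM. Eno3 was at 13.44 TPM in replicate 12, below the other 3 at 17.7 to 18.02 TPM. P4ha2 was at 2.82 TPM in replicate 14, above the other 3 at 0.34 to 0.76 TPM, in the ENT1KO library with the highest fibroblast and tumour list (837 TPM).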

How the results depend on the processing

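No paired analysis was possible because the ENT1KO and WT samples share no replicate number. 22 of the 25 falls kept their direction and call in each alternative that measured them other than the covariates; Aldoa, Eno1 and Eno2 did not, and neither did any of the 3 rises. The cause of the changes below was not tested. With either marker list as a covariate, 0 of the 37 genes and 0 of the other pathway genes were called higher or lower in limma-trend. At an unadjusted p under 0.05, 7 of the other pathway genes were lower and 2 higher with the fibroblast list, and 6 and 2 with the macrophage list. Relative to the CD8 T cell list 0 of the 37 and 0 of the other pathway genes were higher, also at an unadjusted p under 0.05, and 66 of the other pathway genes were lower. Other pathway genes called higher numbered 11, but 5 on normalized counts, 4 with the looser filter, and 1 (without WT replicate 2) to 8 (without WT replicate 3) with a library left out. The Eno1 share differed by 2.39 points from normalized counts and then passed (exact permutation, adjusted p = 0.0408).

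Log2 differences that changed sign were, with quantile normalization, Gpi1 (-0.07), Ldhb (0.19) and Epas1 (0.14). On normalized counts they were Slc16a1 (-0.04), Gpi1 (-0.12) and Pdk1 (-0.12). Relative to the CD8 T cell list they were Slc2a3 (-0.32), Slc16a1 (-1.07), Hk1 (-0.92), Gpi1 (-1.09), Pfkp (-0.47), Pdk1 (-0.94) and Hif1a (-0.62). With the fibroblast covariate they were Slc16a1 (-0.25), Gpi1 (-0.54) and Pdk1 (-0.37), and with the macrophage covariate -0.18, -0.58 and -0.25. With a library left out, Gpi1 ran from -0.01 (without ENT1KO replicate 15) to 0.19, and Ldhb from -0.31 to 0.01 (without ENT1KO replicate 12). Depth limits Adm, Car9 and Eno2 in ENT1KO, at no more than 23.9 normalized counts a library, and P4ha2 in ENT1KO replicates 11, 12 and 15, at 5.08, 19.5 and 10.8.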
